A study of Arabidopsis thaliana with 14 samples.

Results

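Basic helix-loop-helix (bHLH) transcription factors control how Arabidopsis thaliana roots respond to a shortage of iron. The genes described here are bHLH101 (AT5G04150), PYE, in full POPEYE (AT3G47640), bHLH121 (AT3G19860), ILR3 (AT5G54680), bHLH104 (AT4G14410), bHLH34 (AT3G23210) and bHLH115 (AT1G51070). They were chosen by name, with earlier results of these data known, among the factors of this family known for iron control. Each has a probe set paired with exactly 1 gene. They are 7 of the 13356 genes with such a probe set, on an array of 22810 probe sets. Further bHLH genes of iron control with such a probe set, bHLH18, bHLH19, bHLH20 and bHLH25, are not among them. Each of the 7 genes had 1 probe set, and each passed the filter on low signal, with a lowest reading on any array of 85.2.

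In this system, as known from Arabidopsis, ILR3, bHLH104, bHLH34 and bHLH115 form clade IVc of the family. These proteins pair with each other and with bHLH121, a clade IVb factor, and bind genes that are switched on when iron is short. Among their targets are bHLH101, a clade Ib factor that partners FIT to activate iron uptake in the root epidermis, and PYE, a clade IVb factor that represses genes for the storage and movement of iron. ILR3 also pairs with PYE in that repression. Much of the control of the clade IVc proteins is known to act after transcription, through ubiquitin ligases that bind iron and mark these proteins for breakdown.

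Whole roots of the Columbia ecotype were compared in 7 groups of 2 arrays. An array stands for 1 biological replicate, a pool of about 320 roots. All seedlings grew for 5 days on standard medium, which carried Fe(III)-EDTA as its iron source. The control group was then moved to fresh standard medium for 3 h. The other groups were moved to -Fe medium, where Ferrozine, a chelator of ferrous iron, stood at 0.3 mM in place of an iron source, for 3, 6, 12, 24, 48 or 72 h. The control matches the time since transfer of the 3 h group alone. The labels also place all harvests on the sixth day of growth, which cannot hold for 48 and 72 h after a transfer at 5 days, so age at harvest is not settled for those groups. A whole root mixes cell types, and fewer cells of a type and less RNA per cell cannot be told apart in these signals.

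The arrays gave a linear signal for each probe set, with a median of 84.5 to 94.9 per array. Probe sets in the lowest 40% by mean signal, under 49.6, were set aside, and 13648 were tested. The arrays of 48 and 72 h stood apart. On these 4 arrays the geometric mean of the 18 hybridisation spike-in probe sets was 378 to 440, against 2172 to 3232 on the 10 earlier arrays, and each of the 18 was lower on all 4. Set against standard medium or 24 h, the groups of 48 and 72 h therefore differ in array set as well as in time, and the 2 cannot be told apart. Comparisons up to 24 h, and that of 48 with 72 h, stay within a set. Root hair markers (2 of 2 genes with a probe set) summed to 2293 to 3345 in the standard group, 1387 to 1598 at 3 h, 1078 to 1385 at 24 h and 185 to 246 at 72 h. Markers of green tissue (2 of 4 genes) summed to 614 to 674, 700 to 764, 641 to 1120 and 81.2 to 102 in the same groups. The 14 markers listed for other root cell types had 3 probe sets (CO2 of cortex, SGN3 of endodermis and MCM7 of dividing cells), which summed to 779 to 856 in the standard group, 686 to 729 at 24 h and 968 to 991 at 72 h. No marker was at 0. The part of these shifts in the results below was not tested.

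bHLH101 and PYE rose by 24 h on iron-deficient medium, 7.59-fold and 2.61-fold in signal. ILR3 was called higher at 48 and 72 h and bHLH104 lower at 72 h, all on the later arrays. bHLH34, bHLH115 and bHLH121 passed the test at no time against standard medium. Calls are from limma on log2(signal + 16) with Benjamini-Hochberg adjustment over all 13648 probe sets, at an adjusted p under 0.05. Low signals look less changed on this scale than they are.

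**Figure D1:**
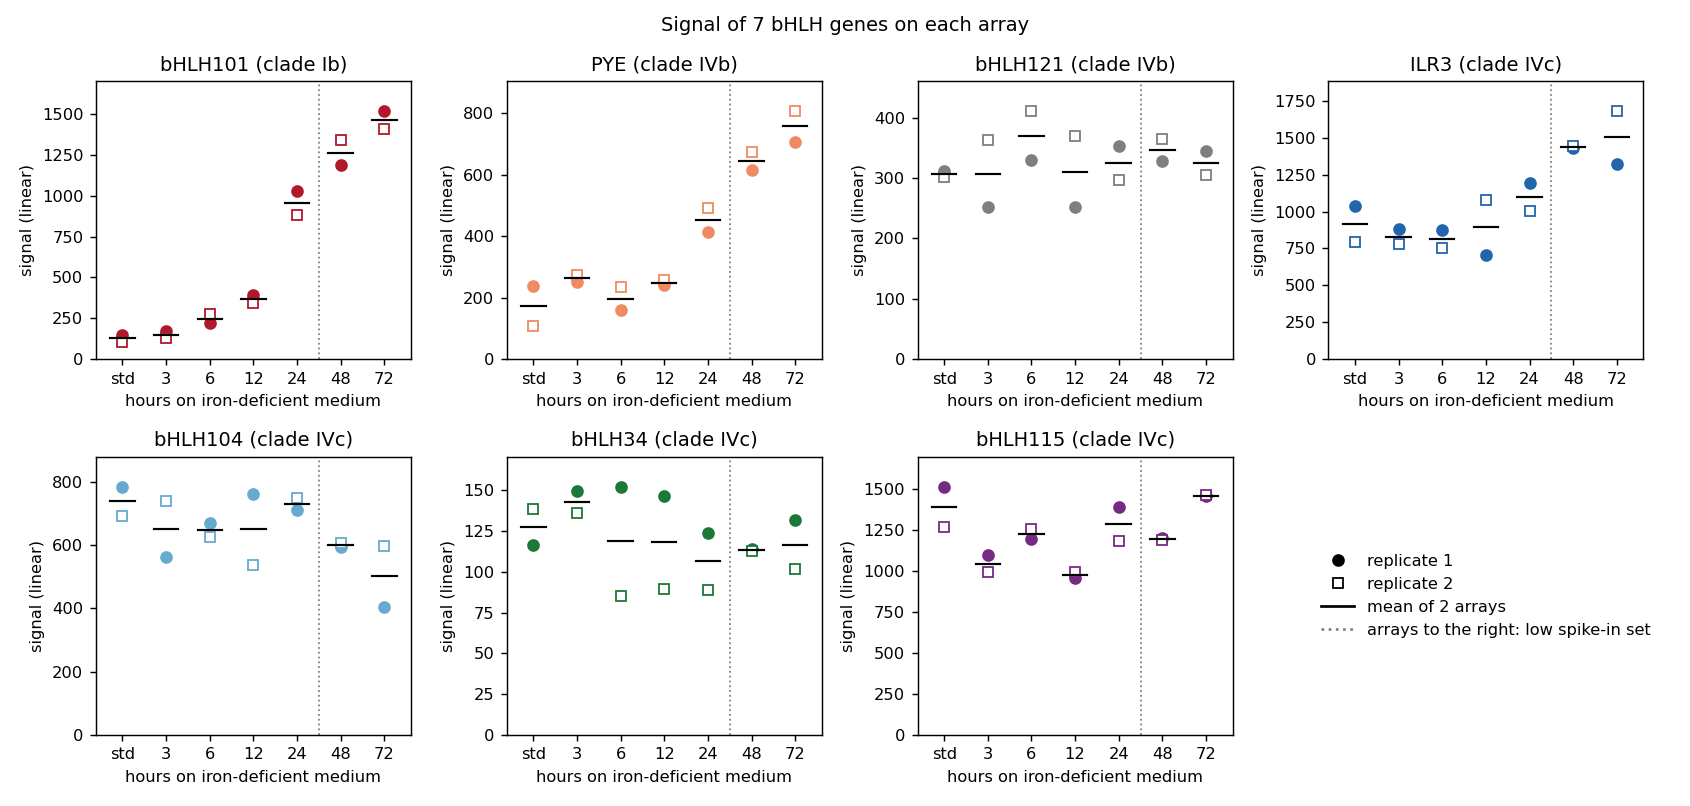
Linear signal of each of the 7 genes (vertical axes, each from 0) on every array, by hours on iron-deficient medium (horizontal axes, std is standard medium). Filled circles are replicate 1, open squares replicate 2, bars the mean of 2 arrays, and the dotted line separates the 48 and 72 h arrays with low spike-ins. bHLH101 climbs from 104 and 148 to 1408 and 1520, PYE climbs from 12 h onward, and bHLH121 stays between 252 and 411.

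bHLH101, the clade Ib target, had standard signals of 148 and 104. On iron-deficient medium they were 170 and 131 after 3 h, 222 and 274 after 6 h, and 395 and 340 after 12 h. At 24 h its signals were 1029 and 885, at 48 h 1186 and 1343, and at 72 h 1520 and 1408. The standard and 3 h arrays overlapped. From 6 h both arrays lay above both standard arrays, and the group means kept the order of the times. Their mean was 126 ± 31.4 (SD, 2 arrays) in the standard group, 248 ± 37.3 after 6 h, 957 ± 102 after 24 h and 1464 ± 79.0 after 72 h.

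The log2 change of bHLH101 against standard medium (SE 0.20 at each time) was 0.24 at 3 h, with an adjusted p of 0.8528. It was 0.90 at 6 h (adjusted p = 0.031), 1.45 at 12 h (adjusted p = 0.0002207) and 2.79 at 24 h (adjusted p = 1.977e-08). The last 3 are 1.97-fold, 2.91-fold and 7.59-fold in linear signal. The change at 24 h was 7th from the top of the 13648 probe sets, ranked by log2 change. Changes of 3.19 at 48 h (adjusted p = 2.727e-10) and 3.40 at 72 h (adjusted p = 6.474e-11) followed, across the array sets, the latter 11.6-fold in signal. The call at 6 h was not firm: it was lost in a fit of the 10 earlier arrays alone (adjusted p = 0.09867), and without replicate 2 of the standard group the change was 0.68 (adjusted p = 0.2017). Leaving out either 6 h array also ended it (adjusted p = 0.05477 and 0.1831), as did leaving out either 48 h array (0.05172 and 0.0522). The calls at 12 and 24 h held in the earlier arrays alone (adjusted p = 0.001302 and 4.025e-07) and without any 1 array.

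PYE, the repressor of iron storage and movement genes, had standard signals of 239 and 107. They were 252 and 275 after 3 h, 159 and 233 after 6 h, and 242 and 256 after 12 h. It then reached 413 and 491 at 24 h, 615 and 674 at 48 h, and 707 and 809 at 72 h. The control group, with a mean of 173 ± 93.9, had the largest SD of the 7 groups. Both arrays lay above both standard arrays at 3, 12, 24, 48 and 72 h, and at 6 h they overlapped.

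The log2 change of PYE (SE 0.26) was 0.66 at 3 h (adjusted p = 0.5918), 0.24 at 6 h (0.808) and 0.58 at 12 h (0.321), none of which passed the test. It was 1.40 at 24 h (adjusted p = 0.002099), 1.90 at 48 h (9.821e-06) and 2.12 at 72 h (1.904e-06). In linear signal the rises were 2.61-fold, 3.72-fold and 4.38-fold. At 24 h PYE ranked 77th from the top of all tested probe sets. The fit of the 10 earlier arrays kept this call (adjusted p = 0.006832). It rested on few arrays, though: without replicate 2 of the standard group the change at 24 h was 0.87 (adjusted p = 0.05344), and without replicate 2 of the 24 h group it was 1.28 (0.05031). Without replicate 1 of the standard group, on the other hand, PYE was called at 12 h as well, at 1.11 (adjusted p = 0.01896). The earliest call of PYE thus differed with the control array left out.

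bHLH121, the clade IVb partner of the clade IVc factors, gave signals between 252 and 411 over the 14 arrays, with a median of 328. Its signals were 311 and 302 in the standard group, 353 and 296 after 24 h, and 344 and 305 after 72 h. Both arrays lay above the standard arrays at 6 h (329 and 411) and at 48 h (327 and 364), and the groups overlapped at the other times. The log2 change (SE 0.21) ranged from -0.02 at 3 h to 0.25 at 6 h and was called at no time. At 24 h it was 0.07, with a 95% interval of -0.38 to 0.52, so a change in either direction of that size would not have been seen with 2 arrays a group.

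ILR3, the clade IVc factor that also pairs with PYE, had standard signals of 1040 and 792. They were 881 and 777 after 3 h, 874 and 752 after 6 h, 708 and 1080 after 12 h, and 1191 and 1001 after 24 h. All of these groups overlapped the control. At 48 h its signals were 1433 and 1444, and at 72 h 1325 and 1683, above every earlier array. The log2 change (SE 0.20) was 0.26 at 24 h (adjusted p = 0.6447), 0.66 at 48 h (0.01754) and 0.71 at 72 h (0.009622), the last 2 being 1.57-fold and 1.64-fold in signal. Both calls lie across the array sets. Within a set, the change of ILR3 was 0.39 from 3 to 24 h (adjusted p = 0.528) and 0.05 from 48 to 72 h, neither of which passed. Without replicate 2 of the standard group the changes were 0.46 at 48 h (adjusted p = 0.1745) and 0.51 at 72 h (0.1183). The 48 h call also ended without either 48 h array (adjusted p = 0.08053 and 0.08436), and the 72 h call without its replicate 2 (0.54, adjusted p = 0.1215).

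bHLH104, the second clade IVc factor, moved the other way in the later set. It gave 786 and 692 in the standard group, 564 and 740 after 3 h, 669 and 626 after 6 h, and 763 and 537 after 12 h. Later signals were 711 and 750 after 24 h, 593 and 607 after 48 h, and 404 and 599 after 72 h. Both arrays lay below the standard arrays at 6, 48 and 72 h. The log2 change (SE 0.21) was -0.01 at 24 h, -0.29 at 48 h (adjusted p = 0.3053) and -0.57 at 72 h (0.03698). The 72 h value leaned on replicate 1 of that group, without which it was -0.29 (adjusted p = 0.41). Leaving out either standard array ended the call too (adjusted p = 0.1803 and 0.05939), and from 48 to 72 h, within the later set, the change was -0.28 and not called.

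bHLH115, another clade IVc factor, ran between 958 and 1516 over the 14 arrays, with its highest array in the standard group. It gave 1516 and 1269 in the standard group, 1096 and 995 after 3 h, 1197 and 1255 after 6 h, and 958 and 994 after 12 h. Later signals were 1390 and 1181 after 24 h, 1200 and 1191 after 48 h, and 1457 and 1461 after 72 h. Both arrays were below the standard arrays at 3, 6, 12 and 48 h, while those of 24 and 72 h overlapped them. The log2 change (SE 0.16) was -0.40 at 3 h (adjusted p = 0.5856) and -0.50 at 12 h (0.1144), and no comparison with standard medium was called. At 24 h the change was -0.11, with a 95% interval of -0.44 to 0.21. The F test of limma over all 6 times did pass for bHLH115 (adjusted p = 0.04567), though not for the times up to 24 h in the earlier arrays alone (adjusted p = 0.5423).

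bHLH34, the remaining clade IVc factor, ran from 85.2 to 152 over the 14 arrays with a median of 120. Both extremes came from the 6 h group. The log2 change (SE 0.27) lay between -0.24 at 24 h and 0.15 at 3 h and was never called. At 24 h its 95% interval of -0.81 to 0.33 was the widest of the clade. The standard deviation of bHLH34 within groups, 0.30 on the log2 scale, exceeded that over all 14 arrays, 0.25.

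The F test over all 6 times, which 38.8% of all tested probe sets passed, was passed by bHLH101 (adjusted p = 2.017e-11), PYE (2.54e-06) and ILR3 (0.002768) besides bHLH115. It did not pass for bHLH104 (0.2752), bHLH121 (0.8896) or bHLH34 (0.8949). A count of 4 of 7 members is to be read against that share, and as description only, since the choice of members was not blind to these data. For the times up to 24 h in the earlier arrays, where 2.39% of all probe sets passed, it passed for bHLH101 (2.288e-06) and PYE (0.04975), and the other members had adjusted p of 0.5423 to 0.9695. The ratio of the highest to the lowest array was 14.6 for bHLH101, 7.58 for PYE and 2.38 for ILR3, and 1.58 to 1.94 for the other 4.

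**Figure D2:**
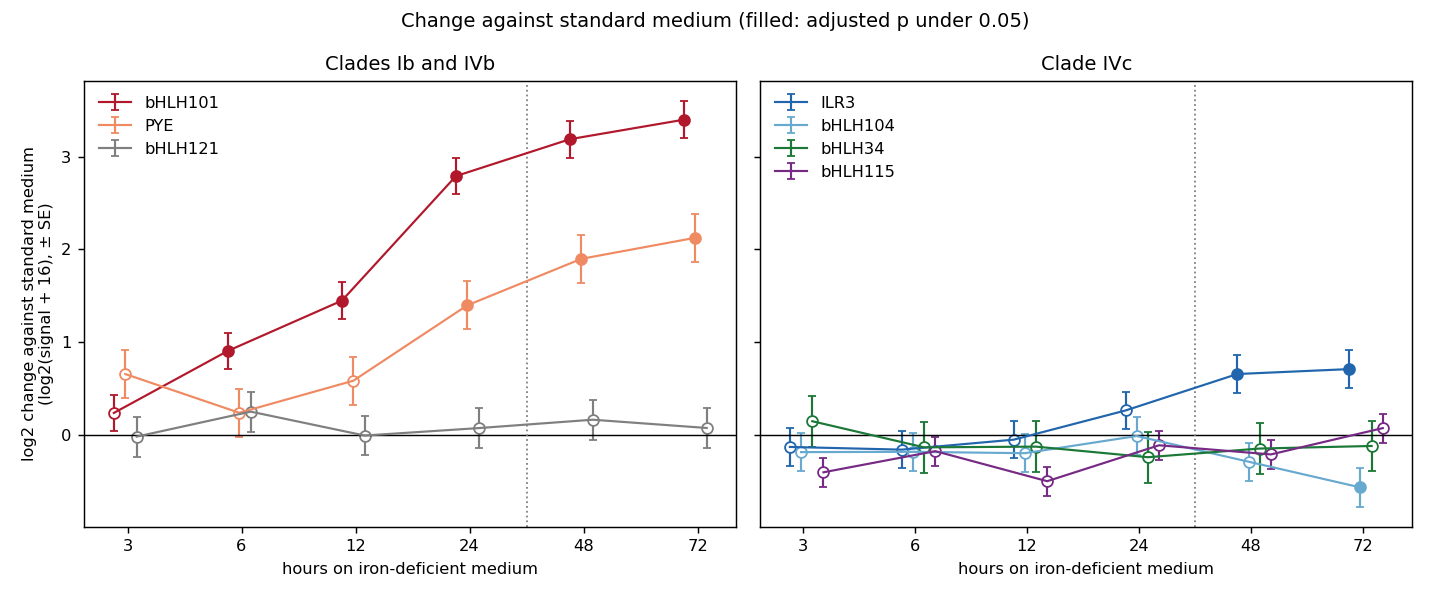
Log2 change of each gene against standard medium (vertical axis, log2(signal + 16), ± SE) by hours on iron-deficient medium (horizontal axis, evenly spaced times). The left panel holds clades Ib and IVb, the right panel clade IVc, filled points have an adjusted p under 0.05, and the dotted line marks the change of array set. bHLH101 reaches 2.79 and PYE 1.40 at 24 h, while all clade IVc genes lie between -0.50 and 0.26 up to that time.

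Read against all probe sets, the members called stand as follows, again as description only. At 3 h 0 of 7 members were called, where 0.022% of all tested probe sets were higher and 0% lower, while 993 passed an unadjusted p of 0.05. At 6 h 1 of 7 was higher and 0 lower, against 0.366% and 0.579% of all. At 12 h 1 of 7 was higher and 0 lower, against 1.07% and 1.56%, and at 24 h 2 of 7 were higher and 0 lower, against 1.61% and 2.01%. In the later set the background was far larger. At 48 h 3 of 7 were higher and 0 lower, where 15.9% of all probe sets were higher and 15.6% lower. At 72 h 3 of 7 were higher and 1 lower, against 18.3% and 17.6%. When each array was centred on the median of the tested probe sets, the whole-array split moved from 2165 higher and 2125 lower to 1646 and 2587 at 48 h, and from 2503 and 2401 to 1888 and 2865 at 72 h. The median of all probe sets then moved from 0.06 to -0.05 at 48 h and from 0.07 to -0.05 at 72 h, and no call of a member changed. The median log2 change of the 7 members was 0.07 at 24 h, 0.16 at 48 h and 0.07 at 72 h, beside 0.02, 0.06 and 0.07 over all tested probe sets.

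Comparing neighbouring times leaves the control arrays out of the change itself. They still enter the spread that its test uses, which comes from all 14 arrays. bHLH101 rose from 12 to 24 h by 1.34 (adjusted p = 0.001862), and this step also passed in the earlier arrays alone (adjusted p = 0.01467). It was 1 of 7 members called in that step, where 0.322% of all probe sets were higher and 0.0513% lower. The earlier steps of bHLH101 were 0.67 from 3 to 6 h (adjusted p = 0.304) and 0.54 from 6 to 12 h (0.6213). The later ones were 0.40 from 24 to 48 h (0.1616) and 0.21 from 48 to 72 h (0.9995). From 12 to 24 h PYE changed by 0.81 (adjusted p = 0.345), and ILR3 and bHLH115 by 0.31 and 0.39, none of which passed.

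No member was called in the other steps. From 3 to 6 h 0.0513% of all probe sets were higher and 0.169% lower, and from 6 to 12 h 0.044% and 0%. From 24 to 48 h, across the array sets, 11.1% were higher and 12.7% lower, and still 0 of 7 members were called. Under centring on the tested probe sets that step held 1145 higher and 2065 lower in place of 1509 and 1729. In a fit of only the 4 arrays of 24 and 48 h, PYE was called higher (0.50, adjusted p = 0.02419, beside 0.1752 with all arrays). From 48 to 72 h 0.00733% were higher and 0.00733% lower, 2 probe sets in all, while 568 passed an unadjusted p of 0.05.

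The longest span inside the earlier set whose change uses no control array runs from 3 to 24 h. Over it bHLH101 rose by 2.55 (adjusted p = 1.103e-07), 11th of all probe sets. This was 1 of 7 members, where 1.01% of all probe sets were higher and 0.989% lower. PYE changed by 0.74 over the same span, which did not pass (adjusted p = 0.204, unadjusted p = 0.009285, and adjusted p = 0.3499 in the earlier arrays alone). For PYE, then, the call at 24 h against standard medium had no counterpart against 3 h. The 3 h arrays, at 252 and 275, lay above both standard arrays at 239 and 107. The SE of PYE, 0.26, holds the spread of the standard pair in both comparisons, so the miss is not independent of the control. Over the alternative settings the change from 3 to 24 h ran from 0.62 to 0.86.

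**Figure D3:**
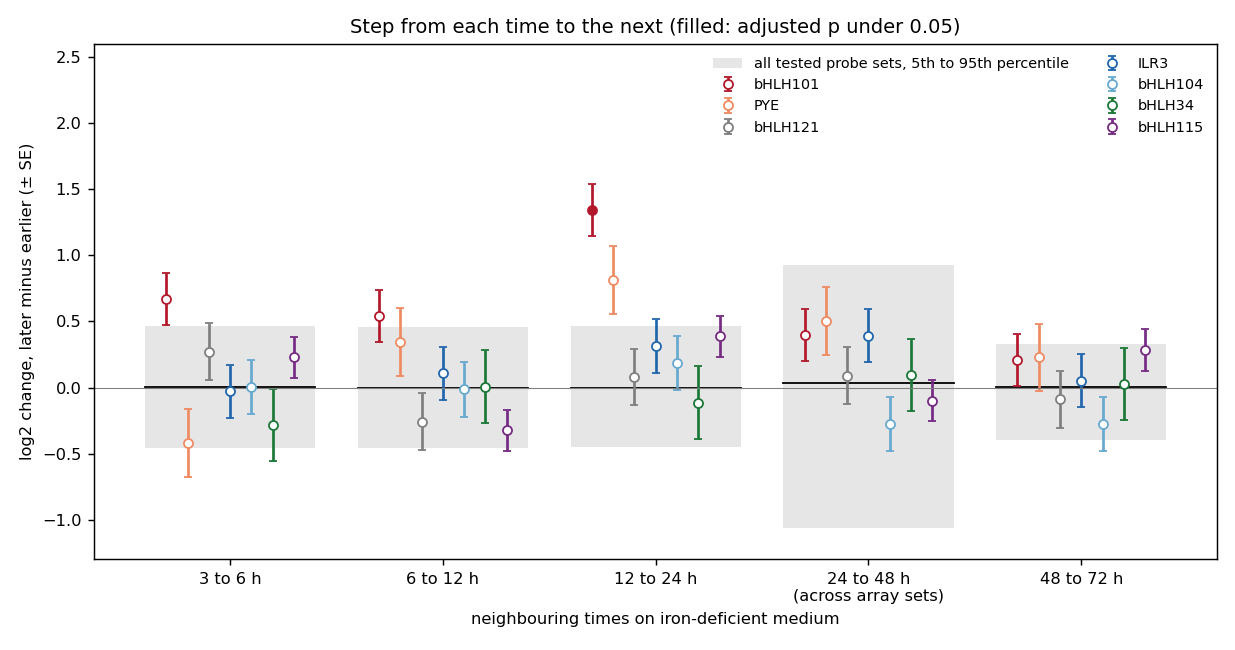
Log2 change of each gene from one time to the next (vertical axis, later minus earlier, ± SE) for the 5 steps on iron-deficient medium (horizontal axis). Grey boxes span the 5th to the 95th percentile of all tested probe sets with a line at their median, and filled points have an adjusted p under 0.05. The step of bHLH101 from 12 to 24 h, 1.34, is the single filled point, and the box widens for the step across the array sets.

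The changes of bHLH101, PYE and bHLH121 were then set against those of each clade IVc gene. For this, the log2 value of the clade IVc gene was subtracted on the same array. The differences come from the same arrays as the calls above and are no separate evidence for them. Intervals are 95%, from the spread of each difference itself over all 14 arrays, standard arrays included, with 7 residual degrees of freedom. They were not adjusted for the number of pairs. At 24 h against standard medium bHLH101 rose more than all 4 clade IVc genes: by 2.53 more than ILR3 (1.85 to 3.21), 2.80 more than bHLH104 (2.06 to 3.54), 3.03 more than bHLH34 (2.17 to 3.89) and 2.90 more than bHLH115 (2.59 to 3.22). The difference excluded 0 for 4 of 4 at 6 h, with estimates of 1.04 to 1.09 and outer bounds of 0.18 to 1.90. So it did at 12 h, with estimates of 1.50 to 1.95 and bounds of 0.71 to 2.43. From 12 to 24 h it did so too, with estimates of 0.96 to 1.46 and bounds of 0.35 to 2.32. From 3 to 24 h it was 2.16 against ILR3 (1.48 to 2.84) and 2.26 against bHLH115 (1.95 to 2.58), and 4 of 4 again excluded 0. Elsewhere fewer did so: 1 of 4 at 3 h, 3 of 4 from 3 to 6 h, 1 of 4 from 6 to 12 h, 1 of 4 from 24 to 48 h and 0 of 4 from 48 to 72 h. At 48 and 72 h against standard medium, across the array sets, it was 4 of 4.

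PYE at 24 h also rose more than each clade IVc gene, by 1.13 relative to ILR3 (0.33 to 1.94), 1.41 to bHLH104 (0.59 to 2.23), 1.64 to bHLH34 (0.30 to 2.97) and 1.51 to bHLH115 (0.82 to 2.20). Before that, 2 of 4 differences of PYE excluded 0 at 3 h, 0 of 4 at 6 h and 1 of 4 at 12 h, and at 48 and 72 h 4 of 4 did. In the 5 steps between neighbouring times 0 of 4 excluded 0. From 3 to 24 h none of its 4 differences excluded 0, as they ran from 0.35 to 1.13 with bounds of -0.46 to 2.46. The spread of the standard pair of PYE enters these intervals too. Without replicate 2 of the standard group, or without replicate 2 of the 24 h group, the difference at 24 h excluded 0 for 2 of 4, with values of 0.80 and 0.89 relative to ILR3. The difference to bHLH34 also reached 0 in the earlier arrays alone. bHLH101 rose more than PYE, by 0.67 at 6 h against standard medium (0.03 to 1.30), 0.86 at 12 h (0.23 to 1.50) and 1.39 at 24 h (0.76 to 2.03). At 3 h their difference was -0.42 (-1.05 to 0.21), PYE having the larger value of the pair. From 3 to 6 h the difference was 1.09 (0.45 to 1.72). It joined a change of 0.67 in bHLH101 with one of -0.42 in PYE, neither of which was called. From 3 to 24 h the difference was 1.81 (1.18 to 2.45). From 24 to 48 h (-0.10, with an interval of -0.74 to 0.53) and from 48 to 72 h (-0.02, with an interval of -0.65 to 0.62) no further difference was resolved.

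For bHLH121 no difference from any of the 4 clade IVc genes was resolved in any comparison. At 72 h, across the array sets, it changed by -0.63 relative to ILR3 (-1.31 to 0.04) and 0.64 relative to bHLH104 (-0.22 to 1.50). At 24 h its differences ran from -0.19 to 0.31, with bounds of -0.86 to 1.40, which leaves room for a difference above 2-fold. Its change was below that of bHLH101 by 2.72 (1.97 to 3.47) and below that of PYE, the other clade IVb gene, by 1.32 (0.48 to 2.17). The pair of clade IVb genes thus parted at 24 h against standard medium. From 3 to 24 h the interval of that difference, -0.19 to 1.49, included 0.

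Among themselves, the clade IVc genes did not separate within the earlier arrays: 0 of 6 pairs excluded 0 at 3, 6, 12 and 24 h or from 3 to 24 h. Against standard medium 2 of 6 pairs did so at 48 h and 3 of 6 at 72 h. ILR3 exceeded bHLH104 by 0.95 at 48 h (0.12 to 1.77) and by 1.28 at 72 h (0.45 to 2.10), and exceeded bHLH115 by 0.87 (0.42 to 1.32) and 0.64 (0.18 to 1.09). bHLH104 lay below bHLH115 at 72 h, with a difference of -0.64 (-1.27 to -0.01). From 24 to 48 h, across the array sets, 1 of 6 pairs excluded 0, with ILR3 above bHLH115 by 0.49 (0.04 to 0.94). From 48 to 72 h, within the later set, 0 of 6 pairs excluded 0.

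**Figure D4:**
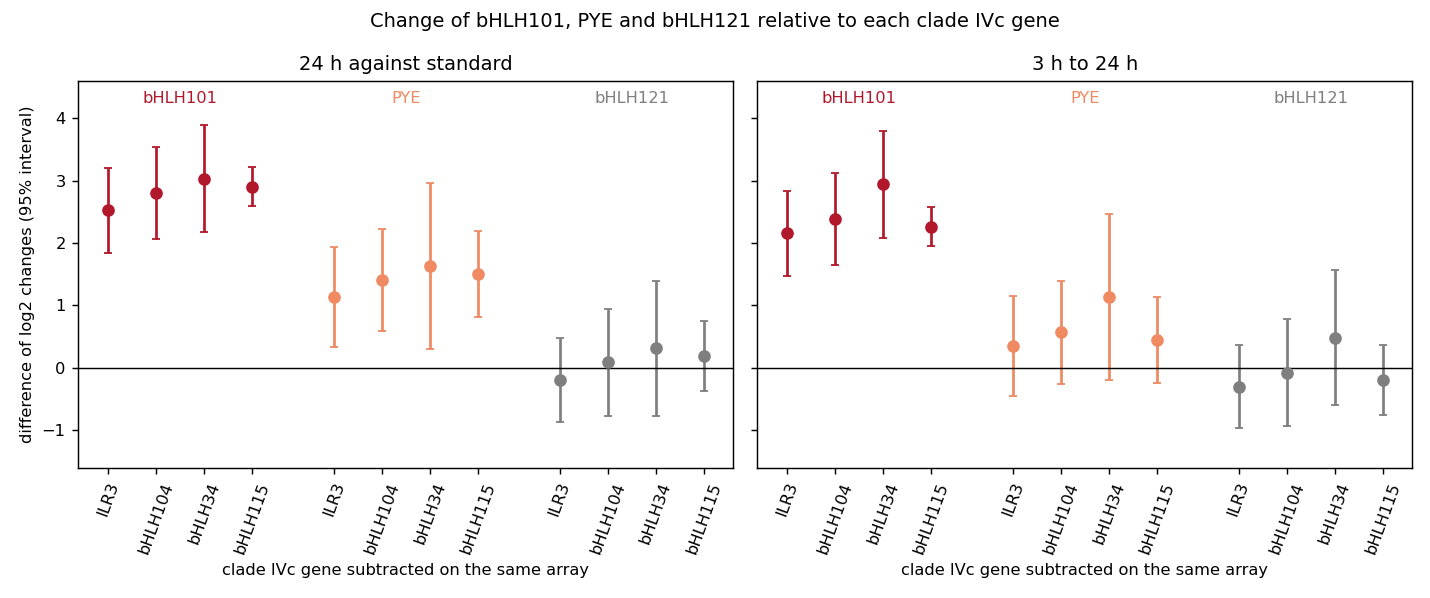
Log2 change of bHLH101, PYE and bHLH121 minus that of each clade IVc gene on the same arrays (vertical axis, with 95% intervals), for 24 h against standard medium on the left and for 3 to 24 h on the right. The gene subtracted is named on the horizontal axis. All 4 intervals of bHLH101 lie above 0 in both panels, those of PYE in the left panel alone, and those of bHLH121 all include 0.

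For bHLH101 the 5 probe sets with the closest pattern among 7355 others paired with 1 gene, by Pearson correlation of log2 values over the 10 earlier arrays, were those of AT1G74770 (0.98), AT3G61930 (0.97), BGLU42 (AT5G36890, 0.96), ATPMEPCRB, a pectin methylesterase gene (AT4G02330, 0.96), and AT5G38820 (0.96). Over all 14 arrays the correlations were 0.97 to 0.98. All 5 were called higher at 24 h, by 1.21, 2.65, 2.31, 3.75 and 1.54 in that order, where 1.61% of all tested probe sets were. For PYE they were AT1G69840 (0.92), AT2G16860 (0.91), AT3G01350 (0.89), AT1G49000 (0.88) and AT1G47400 (0.87), and over 14 arrays AT2G16860 dropped to 0.23 while the other 4 gave 0.93 to 0.95. Of these, AT3G01350 (1.27), AT1G49000 (2.37) and AT1G47400 (3.01) were called higher at 24 h. PYE and bHLH101 correlated at 0.78 over 10 arrays and 0.91 over 14. The points share arrays, array set and time, and the values serve as description only. The matches were picked on arrays that include standard medium and 24 h, so their calls at 24 h follow largely from that choice.

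The other members, themselves not called at 24 h, were matched by genes not called then either. This too follows largely from the choice, as 1.61% of all tested probe sets were called higher at 24 h and 2.01% lower. Over the 10 arrays bHLH104 was most like CSLC5 (AT4G31590, 0.95) and ISU1 (AT4G22220, 0.94), but over 14 arrays these fell to 0.43 and 0.45. bHLH121 was most like AT2G45530 (0.90) and AT3G06460 (0.90), with 0.57 and 0.25 over 14 arrays. ILR3 had AT3G02700 (0.88) and AT3G14100 (0.85), bHLH34 had AT2G38370 (0.92) and AT1G67660 (0.89), and bHLH115 had AT1G12810 (0.87) and AT1G28570 (0.86). ILR3 correlated with bHLH101 at 0.50 over 10 arrays and 0.80 over 14, and with PYE at 0.51 and 0.84.

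Of 39 other genes of iron control listed for comparison, 8 had a probe set paired with 1 gene and 5 passed the filter, with 6 probe sets. The other clade Ib genes, FIT and the uptake genes IRT1 and FRO2 were not analysed here. At 24 h 3 of the 6 probe sets were higher and 0 lower, beside 1.61% and 2.01% of all tested probe sets. At 48 and 72 h, across the array sets, 4 were higher and 1 lower, where 15.9% and 18.3% of all were higher and 15.6% and 17.6% lower. AT1G47400 had mean signals of 151 on standard medium and 1303 at 24 h, a log2 change of 3.01 (adjusted p = 1.083e-08). It was also called higher at 3 h by 1.17 (0.04617), when no member was called, and gave 0.88 at 6 h (0.0342). The 3 h call lay near the threshold, where 3 probe sets in all were higher, and 1 after centring on the array median. Its dependence on the processing was not examined here. AT1G18910 rose at 24 h by 0.87 (adjusted p = 0.003088). Of 2 probe sets for AT1G74770, 1 rose by 1.21 (adjusted p = 3.768e-05) and the other gave 0.72 (0.1012). EIN3, a factor of ethylene signalling (AT3G20770), gave -0.00 at 24 h and was not called at any time. NAI1 (AT2G22770), a bHLH gene also called bHLH20, gave -0.09 at 24 h and was lower at 48 h (-1.23, adjusted p = 0.007083) and 72 h (-0.94, adjusted p = 0.03217), across the array sets.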

How the data were processed

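RNA of 14 whole-root samples was measured on Affymetrix arrays. The authors deposited linear intensities per probe set. Per the submitters' processing notes they used MAS5, whose version is not given in the sources used here. Groups, replicate numbers and times came from the labels. Values of 0 columns were left unmatched. Mean signals without the lowest and highest 2% of probe sets were 250.0 on each array, and this scaling was kept. Precision is limited by having 2 arrays per group.

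Values were transformed as log2(signal + 16), and probe sets in the lowest 40% by mean were removed. limma 3.58.1 in R 4.3.3 fitted 1 mean per group over all 14 arrays, with a prior that follows the mean, and tested 6 comparisons with standard medium and 6 between times, each adjusted by Benjamini-Hochberg. The code was tested on simulated data.

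The members and gene lists were chosen with earlier results of these data known. Named genes are all members, the probe sets most like them by correlation (5 each for bHLH101 and PYE, 2 for each other member), and the tested genes of the iron control list, of which those with calls at 24 h were given first. Symbols come from RefSeq's TAIR10.1 table, and loci without a symbol there keep their locus name.

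Differences between members were planned as the same limma fit after subtracting a clade IVc gene from all probe sets. That fit was run and then replaced, after its results had been seen, because the probe sets share the subtracted gene's error: for ILR3 and bHLH34 the total degrees of freedom reached 95529, the limit set by pooling all probe sets, where the arrays give 7. With PYE subtracted, 94.6% of probe sets were called at 24 h. The replacement uses the spread of each pair alone. The planned fit called bHLH101 against 4 of 4 clade IVc genes at 24 h and from 3 to 24 h. It called PYE against 4 of 4 and 0 of 4, and bHLH121 against 0 of 4 in both. The pairs among bHLH101, PYE and bHLH121, and centring on the median of tested probe sets, were also added after the data had been seen.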

Additional observations from a re-analysis of the deposited data

How the results depend on the processing

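The alternatives were quantile normalization, centring on the array median, pseudocounts of 1 and 64, no filter or a filter at the 60th percentile (which left 6 of 7 members, without bHLH34), no trend in the prior, a robust prior, only the 4 arrays compared, the 10 earlier arrays alone, a replicate block, and each array left out in turn. Centring on the tested probe sets was a later addition, chosen after seeing the data. Of 2612 values, 2584 kept their direction and their side of the threshold, apart from 56 sign changes of values called under neither setting; 26 lost the threshold, 2 gained it, and 0 called values reversed. The number of members called higher at 6 h, 1, was 0 with no filter, with no trend, in the 10 earlier arrays alone and in the 4 arrays compared, and 0 to 1 as arrays were left out. The number higher from 24 to 48 h was 1 in the 4 arrays compared. The number lower at 72 h was 0 with no filter and with no trend. As single arrays were left out, it was 0 to 1, the number higher at 12 h was 1 to 2 and that at 24 h 1 to 2, and PYE differed from 2 to 4 clade IVc genes at 24 h. The calls of ILR3 at 48 and 72 h were also lost without some single arrays, as given above, which lowers the number higher at those times. The filters do not enter the differences between members. The fewer genes or arrays in these fits aside, the cause of each change was not tested.

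Whether replicate numbers pair the samples was not settled. The deviations of same-numbered arrays correlated at -0.14 to 0.27 (median 0.05) over 21 pairs of groups. They were above 0.1 in 4 and under -0.1 in 1, and the mean for a group was positive in 6 of 7 groups. With the replicate block the members called were 2 at 24 h, as without it, and unchanged in number in all 12 comparisons, while all probe sets called went from 494 to 550 at 24 h and from 2 to 7 from 48 to 72 h. With 2 arrays a group, changes of the size of the intervals given for bHLH34, bHLH115 and bHLH121 could not be seen.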
